A study of Mus musculus with 30 samples.

Results

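Cavity macrophages from cultures given a blocker of retinoic acid receptors were compared, gene by gene, with those from stromal co-culture. The comparison set 3 macrophage libraries from cultures given 1 uM BMS493 against 3 macrophage libraries from direct co-culture with podoplanin-positive (PDPN+) stromal cells, with libraries chosen by their titles, and it uses 6 of the 30 libraries of the series. All libraries were mouse polyA RNA, from cells sorted on F4/80 for macrophages or on PDPN for stroma. The other libraries used here are macrophages ex vivo, cultured alone, given all-trans retinoic acid (ATRA, 1 uM) in culture, or cultured with PDPN+ cells across a transwell, and PDPN+ cells alone, in transwell, from co-culture and with BMS493, each with 3 libraries. The labels give no strain, age, genotype or length of culture and name no vehicle. They give the omentum, a fatty tissue in the abdomen, as the origin of the PDPN+ cells, and leave unsaid which cell types the BMS493 cultures contained. Libraries of a group carry the batch tags mbb336, mbb339 and mbb340 for replicates 1, 2 and 3. Nothing says that they came from separate animals, so p-values measure the spread between these libraries, which may be technical.

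Retinoic acid is made from vitamin A by retinaldehyde dehydrogenases and binds the receptors RARA, RARB and RARG, which sit on DNA as pairs with retinoid X receptors. Without ligand the pair can hold corepressors such as NCOR1, and ligand exchanges these for coactivators. BMS493 acts on these receptors as an inverse agonist, a ligand known to strengthen corepressor binding rather than only to displace retinoic acid. In macrophages of the serous cavities, retinoic acid is known to maintain the transcription factor GATA6, which drives much of the programme of the resident cells. The comparison sets macrophages from cultures given BMS493 against macrophages from co-culture. Stromal transcripts, described below, were present in both groups, so it is not a contrast of the drug with stroma.

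Rarb and Cyp26a1, both textbook retinoic acid targets, were among the genes lower with BMS493, and their RefSeq promoters (GRCm38.p6) are shown because each holds a direct repeat of the receptor half-site with 5 bases between. The half-sites searched were AGTTCA or, with G as its first base, GGTTCA, and likewise AGGTCA or, with G as its first base, GGGTCA. They were paired in the same direction with the spacer NNNNN, on both strands of a window from 250 bases before to 50 after the start. Half-sites are in capitals. Both runs are read on the minus strand, Rarb at chr14:16575507-16575536 and Cyp26a1 at chr19:37697770-37697799.
Rarb: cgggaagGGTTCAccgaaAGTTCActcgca
Cyp26a1: acaaattAGTTCAcccaaAGTTCAtcttta
The repeat ends 36 bases before the Rarb start in that table, which lies inside the longer gene span, and 15 bases before the Cyp26a1 start. Such a repeat was in the windows of 31 of 27025 genes in the table (0.115%), and in 32 of all 32851 windows (0.0974%). It was in 8 of 11657 matched genes among those tested (0.0686%), in 2 of 96 matched genes lower with BMS493 (2.08%, these same genes) and in 0 of 17 matched genes higher. The same half-sites 2 bases apart were in 0 of the 96 and in 14 of the 11657 (0.12%). A match describes letters in a window and does not show a bound site.

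The 6 libraries held 30883620 to 43653866 counts and 22152 to 24249 genes with a count, from 12678 to 25000 cells with RNA integrity numbers of 9.6 to 9.8. Adgre1, which encodes F4/80, stood at 1789 to 2490 counts scaled to the library total (CPM) with BMS493 and 2699 to 3513 CPM in co-culture, against 0.682 to 67.1 CPM in PDPN+ libraries. In PDPN+ cells it read 22.4, 67.1 and 40.4 CPM with BMS493 and 40.1, 38.5 and 62.5 CPM in co-culture. PDPN+ cells alone read 0.708, 1.03 and 1.23 CPM, and those in transwell 6.27, 0.682 and 1.45 CPM. Which cells the BMS493 cultures held was not tested. The source name of co-culture replicate 1 carries the tag of the other cell type, against its title and group label, and its Adgre1 level of 2699 CPM is that of a macrophage library. Pdpn, which encodes the protein used to sort the stromal cells, read 71.8, 120 and 683 CPM with BMS493 and 12.5, 19.8 and 329 CPM in co-culture. It was higher with BMS493 in each batch though the groups overlapped (log2 fold change 1.26, SE 2.12, adjusted p = 0.954, and 0.0366 in the fit of the 6 libraries with the batch as a block). Macrophages cultured alone read 0.312, 5.76 and 223 CPM of Pdpn, so it was also high in batch mbb340 of that group. In the same batch, PDPN+ libraries read 215 CPM with BMS493 and 136 CPM in co-culture. The source of Pdpn in the macrophage libraries was not tested. Batch mbb340 stood apart in both groups: chi-square values over degrees of freedom for 2 replicates were 389 to 503 for pairs that included it and 49.0 and 54.2 for the other pairs.

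Stromal transcripts were present in both groups. The summed level of 37 fibroblast, smooth muscle and mesothelial markers was 1549, 1576 and 1813 CPM in the BMS493 libraries and had a lowest value of 602, a median of 1046 and a highest value of 2264 CPM in co-culture. The groups overlapped (exact two-sided permutation p = 0.5, with 0.1 the smallest p that 3 against 3 allows). Macrophages cultured alone held 41.6 to 183 CPM and those in transwell 68.8 to 278 CPM, below every library of both groups, while PDPN+ libraries from co-culture held 32570 to 64786 CPM. Pan-macrophage markers summed to 123034 to 196905 CPM with BMS493 and 113539 to 187052 CPM in co-culture (exact permutation p = 1). That sum was mostly Lyz2, at a mean of 132967 of 152292 CPM with BMS493 and 133814 of 155578 CPM in co-culture. Itgam (mean 1336 against 3671 CPM) and Adgre1 (2126 against 3238 CPM) were lower with BMS493 without overlap. Ctss (5858 against 3853 CPM) was higher, also without overlap. None of these passed the edgeR test (adjusted p = 0.33, 0.454 and 0.4). Among mesothelial markers Msln reached at most 0.0313 CPM with BMS493 and 0.361 CPM in co-culture, Upk3b 2.97 and 8.91 CPM, and Upk1b 15.2 and 8.94 CPM. The whole mesothelial list summed to 0.920 to 26.7 CPM and 0.352 to 30.2 CPM (exact permutation p = 0.9). The endothelial marker Cdh5 reached at most 0.200 and 0.323 CPM, and the T cell marker Cd3e at most 0.120 and 0.301 CPM. Ly6g of neutrophils and Flt3 of dendritic cells were at 0 in all 6 libraries, while S100a8, a granulocyte and monocyte gene, read 14.5 to 122 CPM with BMS493 and 16.7 to 71.5 CPM in co-culture. The dendritic cell list, led by the integrin gene Itgax, summed to 31.1, 26.1 and 73.7 CPM with BMS493 and 8.70, 8.66 and 62.2 CPM in co-culture. The T cell list, led by Il7r, summed to 16.6, 18.3 and 115 CPM against 6.41, 11.9 and 80.2 CPM. Both sums were higher with BMS493 in every batch, with groups that overlapped (exact permutation p = 0.5 for each), and their part in the results was not tested. Mast cell markers summed to 0.0313 to 1.20 CPM with BMS493 and 0.499 to 8.50 CPM in co-culture (exact permutation p = 0.2).

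**Figure D1:**
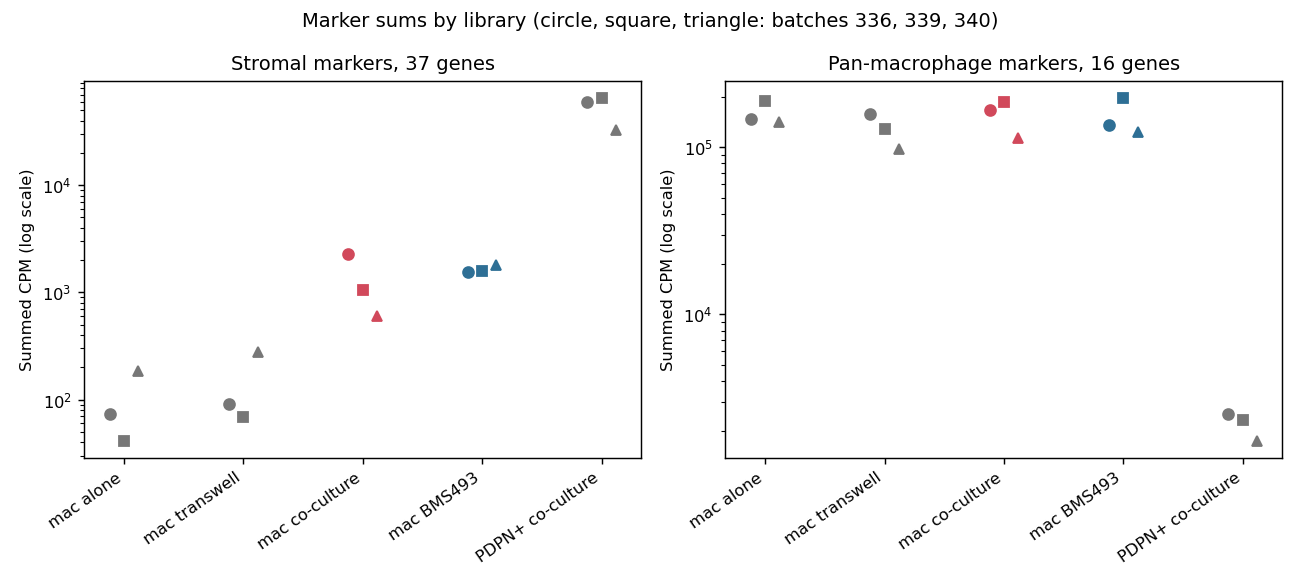
Summed CPM (log scale) of 37 stromal markers, left, and 16 pan-macrophage markers, right, with 1 point per library, by group and batch. Stromal sums of 1549 to 1813 CPM with BMS493 lie within the co-culture range of 602 to 2264 CPM, and both are above macrophages cultured alone.

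Macrophages in BMS493 had far lower levels of several retinoic acid targets and of several genes of the resident cavity programme than macrophages in co-culture. P-selectin (Selp) was 144-fold lower, Rarb 39.5-fold, the transcription factor Hivep2 15.2-fold and Gata6 10.8-fold, while the adhesion molecule Cadm1 was 15.1-fold higher. In edgeR's quasi-likelihood test over all 18 macrophage libraries, 129 of 17774 genes were lower (0.726%) and 22 higher (0.124%) at a Benjamini-Hochberg adjusted p under 0.05, which is what lower, higher and called mean below. The median fold was 5.80 for the lower genes and 4.14 for the higher, and 77 lower genes passed 5-fold. In all 151 called genes the 3 libraries of one group lay outside the range of the other, as did 15.5% of all genes tested. Each batch taken alone therefore had to give the same direction for all 151, which adds no separate evidence. With the batch as a block, 257 genes were lower (1.45%) and 63 higher (0.354%), the 151 among them. Without BMS493 replicate 1 or 2, 42 and 36 genes were lower and 6 and 7 higher. Without co-culture replicate 1, 2 or 3, higher genes numbered 6, 2 and 13, and without co-culture replicate 2 lower genes numbered 48. When batch mbb340 was left out of all groups, 253 were lower and 61 higher.

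**Figure D2:**
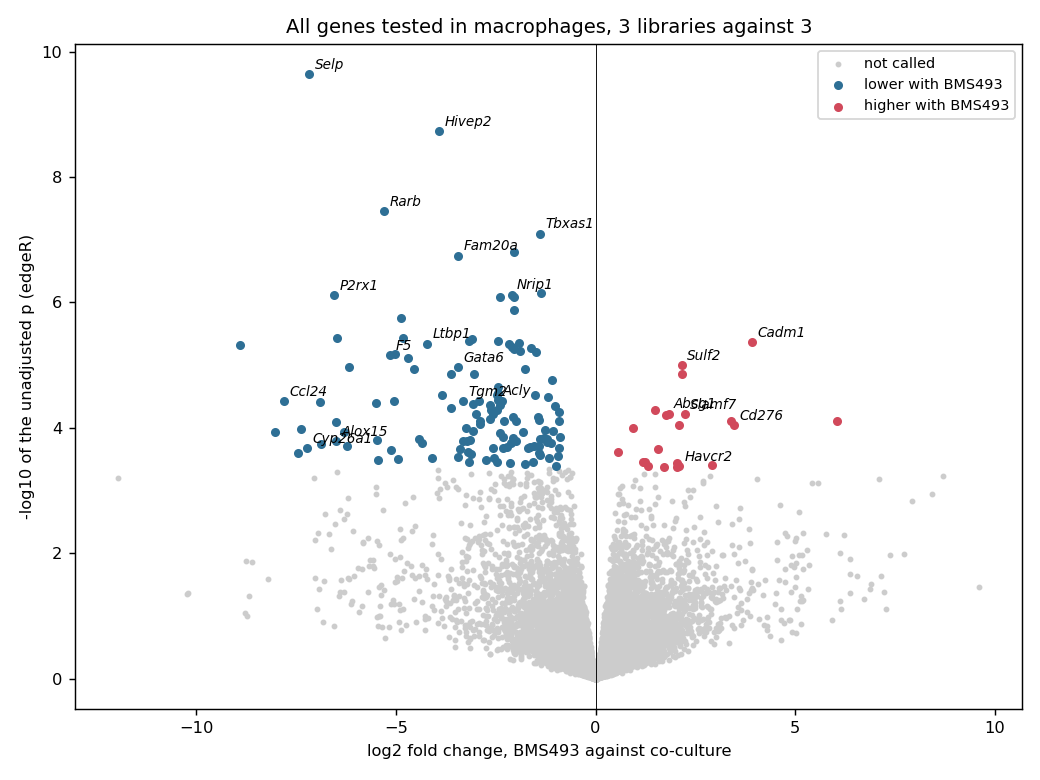
Log2 fold change of BMS493 against co-culture (x axis) and −log10 of the unadjusted edgeR p (y axis) for every gene tested. The 129 lower genes (left) outnumber the 22 higher genes (right), with Selp, Hivep2 and Rarb at the top.

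Of 18 genes that respond to retinoic acid, a list chosen with earlier results of these data known, 13 could be tested. Of these 4 were lower (30.8%) and 0 higher, against 0.726% and 0.124% of all genes tested. The median log2 fold change of the 13 was -1.87, against 0.0082 over all genes tested. Of the 13, 10 were below 0, as were 49.1% of all genes tested. That median is the value of Cyp26b1, which read at most 0.0301 CPM in any of the 6 libraries. Cyp26c1 and Crabp2, also among the 10, reached at most 0.211 and 0.734 CPM there. Rarb, the receptor gene that retinoic acid itself induces (chr14:16430839-16819156, minus strand, GRCm38), read 0.313, 0.742 and 0.480 CPM with BMS493 and 16.8, 25.9 and 16.9 CPM in co-culture. Its groups were far apart, at a log2 fold change of -5.30 (SE 0.515, adjusted p = 0.000208), and the call held with any 1 library left out. Cyp26a1, the enzyme that breaks down retinoic acid, read 0, 0.0706 and 0.160 CPM against 8.22, 19.3 and 6.14 CPM. That is close to nothing against a low but clear level, with a log2 fold change of -7.23 (SE 1.42, adjusted p = 0.0314). The Cyp26a1 call ended, at adjusted p of 0.0586 to 0.185, when any library other than co-culture replicate 3 was left out.

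Nrip1, a ligand-dependent corepressor that retinoic acid induces, read 22.1, 26.5 and 31.7 CPM with BMS493 and 100, 126 and 112 CPM in co-culture, with no overlap (4.29-fold lower, adjusted p = 0.0013). Tgm2, the protein-crosslinking transglutaminase 2, read 55.6, 65.4 and 134 CPM against 507, 663 and 1359 CPM. Every BMS493 library was below every co-culture library for Tgm2 (10.1-fold, adjusted p = 0.0129), and the adjusted p was 0.0906 and 0.104 without BMS493 replicate 1 or 2. Dhrs3, a reductase that returns retinaldehyde to retinol, read 113, 114 and 54.3 CPM against 261, 304 and 183 CPM. Its libraries did not overlap, but it did not pass (adjusted p = 0.11). With the batch as a block Dhrs3 passed at 0.00395. Cyp26b1, which also degrades retinoic acid, read 0 CPM in every BMS493 library and 0.0301, 0 and 0 CPM in co-culture. Its log2 fold change of -1.87 (adjusted p = 0.93) thus rests on almost no counts, and the libraries overlapped. Stra6, Stra8, Hoxb1, Cdx1 and Lrat had too few counts to test.

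Among the 6 retinoic acid and retinoid X receptors, Rarb was the 1 gene called, and the median was -0.46. Rara read 11.01, 14.5 and 19.1 CPM with BMS493 and 8.13, 13.1 and 25.8 CPM in co-culture, and Rxra 27.6, 38.2 and 36.3 against 36.2, 46.7 and 24.8 CPM. Both overlapped (log2 fold change -0.10 with an SE of 0.353 for Rara and of 0.343 for Rxra), and these estimates took either sign across alternative settings. Rarg read 3.57, 3.43 and 3.36 CPM against 7.80, 8.74 and 4.91 CPM, without overlap but short of the threshold (adjusted p = 0.14). Nrip1 was also the 1 gene called of 14 corepressors and coactivators. The corepressor gene Ncor1 had a log2 fold change of 0.43 (adjusted p = 0.92).

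Genes of retinoic acid supply did not share this pattern: 0 of 9 tested members of the uptake and synthesis list were called in either direction, with a median of -0.17. Aldh1a2, which makes retinoic acid, read 10.7, 15.01 and 15.6 CPM with BMS493 and 17.98, 13.3 and 14.1 CPM in co-culture, overlapping throughout (adjusted p = 0.979). Aldh1a2 is over 4 times higher in PDPN+ cells than in macrophages cultured alone, where its mean was 1.38 ± 0.748 CPM (SD, n = 3), and stromal transcripts were present in both groups. Aldh1a3, a related enzyme, read 3.13, 7.59 and 12.7 CPM against 0.753, 0.636 and 1.41 CPM and did not pass (adjusted p = 0.109).

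**Figure D3:**
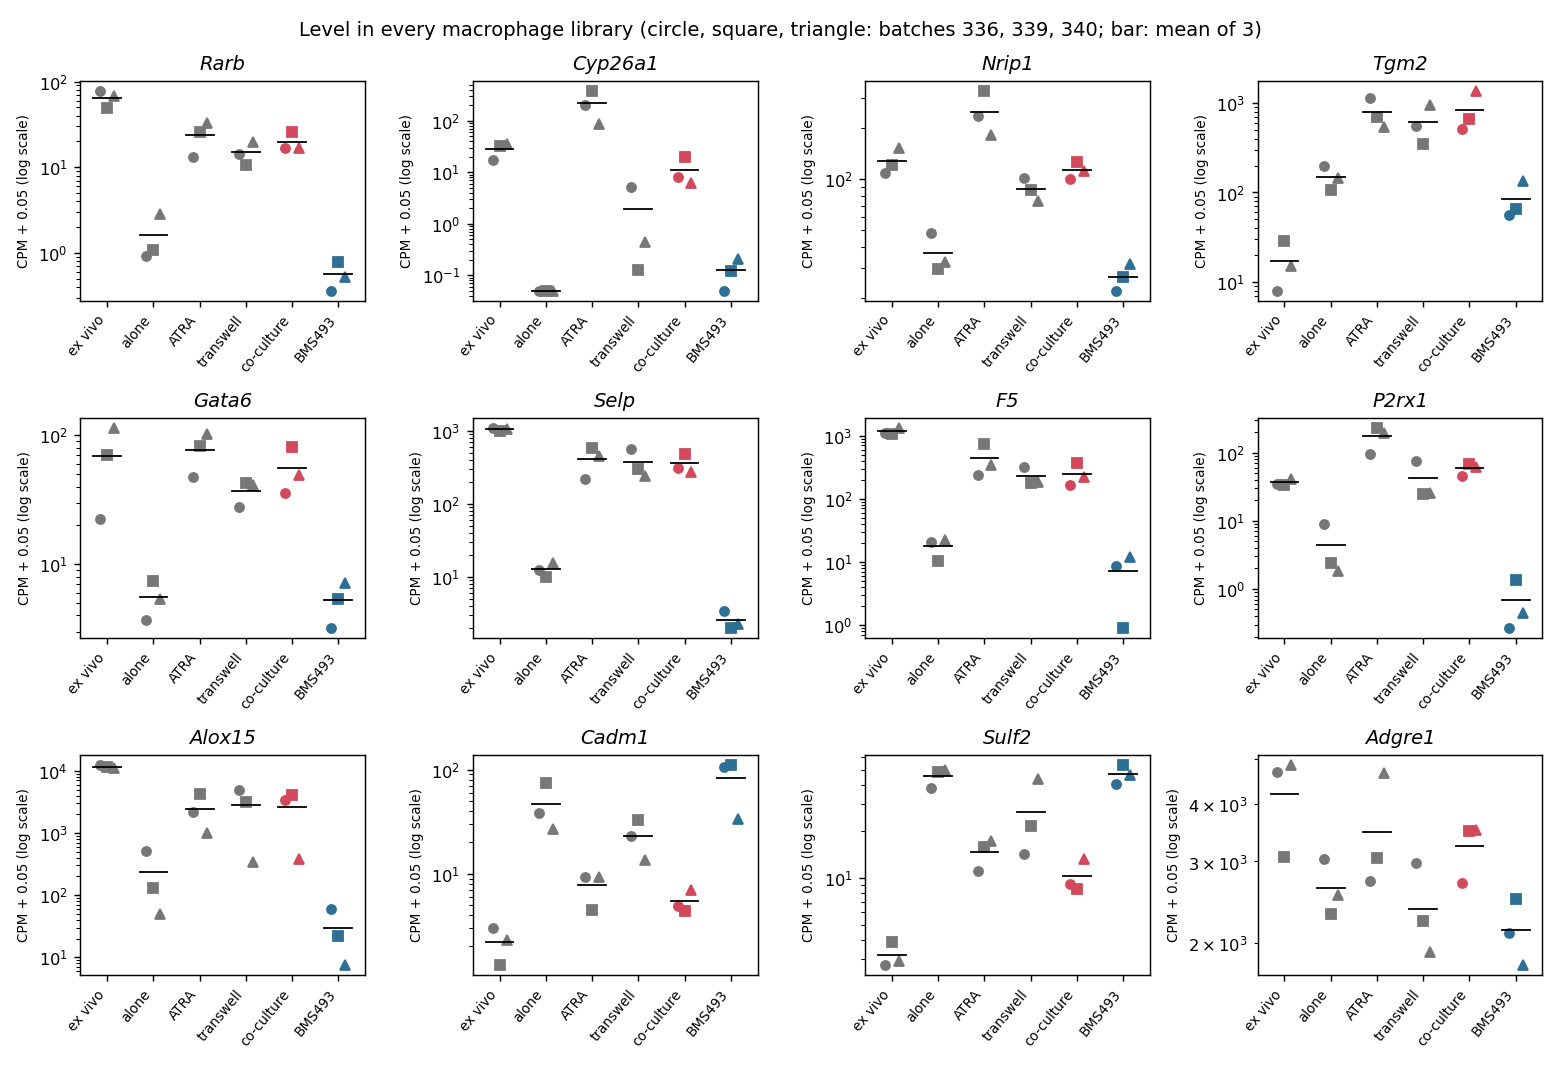
CPM (log scale, with 0.05 added) of 12 genes in all 18 macrophage libraries, by group, with symbols for batches and bars for means. BMS493 libraries (blue) lie below co-culture libraries (red) for the first 9 genes, from Rarb to Alox15, and above them for Cadm1 and Sulf2.

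Selp, Gata6, F5 and P2rx1 were among the lower genes on the list for resident cavity macrophages. Of its 26 genes 9 were lower (34.6%) and 0 higher, against 0.726% and 0.124% of all genes tested, and 17 did not pass. All 26 had a log2 fold change below 0, as did 49.1% of all genes tested, and the median was -2.30. The list was chosen with earlier results of these data known, so its counts are not independent support. Tgfb2 was at -0.01 and turned positive in some alternative settings, so the count of 26 rests on its sign. Gata6 read 3.16, 5.37 and 7.08 CPM with BMS493 and 35.9, 80.9 and 49.2 CPM in co-culture. BMS493 libraries were thus at the level of macrophages cultured alone (5.47 ± 1.89 CPM, SD, n = 3), and the lowest co-culture library was well above them (log2 fold change -3.43, SE 0.531, adjusted p = 0.00569). Without BMS493 replicate 1 or 2 the adjusted p of Gata6 was 0.0507 and 0.0515.

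Selp, the P-selectin that tethers leukocytes and platelets (chr1:164115264-164150026, plus strand), gave the smallest p of all genes. It read 3.35, 1.94 and 2.20 CPM with BMS493 and 311, 484 and 275 CPM in co-culture. The log2 fold change was -7.17 (SE 0.482, adjusted p = 4.06e-06), and it held under every alternative tried. Against macrophages cultured alone, at 12.5 CPM, Selp was lower with BMS493 too (log2 fold change -2.39, adjusted p = 0.012, in a comparison where 0.186% of genes were lower). Of the 129 genes lower than in co-culture, 115 had a BMS493 mean below that of macrophages cultured alone, whether or not they passed that comparison. F5, coagulation factor V, read 8.48, 0.848 and 11.96 CPM against 166, 362 and 218 CPM (35.3-fold lower, adjusted p = 0.00408). P2rx1, an ATP-gated ion channel, read 0.219, 1.31 and 0.400 CPM against 45.4, 69.2 and 62.4 CPM (93.9-fold lower, adjusted p = 0.0013). Both were separated by more than a factor of 10 between the highest BMS493 and the lowest co-culture library, and both calls held with any 1 library left out. In the fit of the 6 libraries alone the adjusted p of F5 was 0.0963.

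Ltbp1, which tethers latent TGF-beta to matrix, was 18.7-fold lower (adjusted p = 0.00366), with 21.3 to 35.5 CPM against 256 to 860 CPM. Alox15, the lipoxygenase abundant in these cells, read 58.8, 21.9 and 7.48 CPM against 3408, 4025 and 377 CPM, each batch falling though the batches differed widely (89.8-fold, adjusted p = 0.0279). The Alox15 call ended without any library other than co-culture replicate 3, at adjusted p of 0.0629 to 0.177. Naip1 of the inflammasome was 5.08-fold lower, the aspartoacylase gene Aspa 9.42-fold, and the hyaluronan receptor gene Lyve1 44.5-fold (adjusted p = 0.0129, 0.0213 and 0.0273). The calls of Naip1, Aspa and Lyve1 ended in 3, 4 and 4 of the 6 omissions. Those libraries were BMS493 replicates 1 and 2 and co-culture replicate 2 for all 3 genes, at 0.0586 to 0.16, BMS493 replicate 3 for Aspa (0.0797) and co-culture replicate 1 for Lyve1 (0.0634).

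Members that did not pass included known surface markers of these cells. Icam2, an adhesion molecule, read 22.6, 29.98 and 26.01 CPM against 68.7, 127 and 83.2 CPM, without overlap (adjusted p = 0.115, and 0.0456 with the batch as a block). Timd4, a receptor for dying cells, read 3.13, 1.84 and 0.120 CPM against 84.0, 60.5 and 2.23 CPM. Timd4 libraries overlapped because batch mbb340 was low in both groups (adjusted p = 0.234, and 0.0268 with the block). Itga6 (159 ± 57.6 against 649 ± 356 CPM, SD, n = 3) and Garnl3 (6.56 ± 0.532 against 30.8 ± 18.3 CPM) were close to the threshold, at adjusted p of 0.0634 and 0.0696.

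Overlapping lists moved through the same genes. Lower genes on the list of vascular-type adhesion molecules included Selp and Pecam1, a junction molecule of endothelium and leukocytes. Pecam1 was 21.3-fold lower at 0.0939 to 1.24 against 7.17 to 23.0 CPM (adjusted p = 0.0272), and its call ended without BMS493 replicate 1, BMS493 replicate 2 or co-culture replicate 2 (adjusted p = 0.101, 0.158 and 0.11). Ltbp1 and Ltbp3 were the genes called of 14 in the TGF-beta list (median -0.0010), and F5 the gene called of 14 coagulation genes (median -0.15).

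The largest decreases outside genes of the partner cell included secreted signals, granule and signalling genes. Bmp2, a bone morphogenetic protein, read 0.219, 0 and 0.760 CPM with BMS493 and 21.5, 14.5 and 6.79 CPM in co-culture (44.9-fold lower, adjusted p = 0.013, and 0.0941 without BMS493 replicate 1). Ccl24, an eosinophil chemoattractant, read 2.22, 1.80 and 6.16 CPM against 170, 223 and 1856 CPM (225-fold, adjusted p = 0.0129). The spread of Ccl24 came mainly from co-culture replicate 3, and its adjusted p was 0.0923 and 0.105 without BMS493 replicate 1 or 2. Cxcl13, a chemokine for B cells, read 8.39, 8.05 and 17.4 CPM against 697, 679 and 73.2 CPM (43.4-fold, adjusted p = 0.0418, and 0.0909 to 0.241 without any library other than co-culture replicate 3). Cxcl13 differs from the genes above in that macrophages cultured alone stood at 614 CPM, so co-culture was not the raised group, and BMS493 was also lower than alone (adjusted p = 0.036).

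The myeloid serine protease gene Prtn3 was 263-fold lower (0.287 ± 0.0707 against 74.6 ± 58.6 CPM, SD, n = 3). Camkk1, a calmodulin-dependent kinase kinase, was 90.4-fold lower and Tdo2, which degrades tryptophan, 116-fold. Pram1, a myeloid adaptor, and Ubash3a, a regulator of T cell receptor signalling, were 34.7-fold and 174-fold lower. The adjusted p of Prtn3, Camkk1, Tdo2, Pram1 and Ubash3a lay between 0.018 and 0.0357, and leaving out 1 library ended the call in 4 or 5 of 6 omissions of each, at up to 0.199, always including each BMS493 replicate and co-culture replicate 2. Prtn3 lies next to Plppr3, whose annotated span overlaps it and which was 32.5-fold lower, and reads of overlapping genes cannot be assigned with certainty. Ucp1, the mitochondrial uncoupling protein of brown fat, had 0 counts with BMS493 and 171 in co-culture, at least 52.6-fold lower when the group's sum is set to the floor of 3 counts.

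Other lower genes included Hivep2, Tbxas1 and Mcu, named after their values were seen. Hivep2, a zinc finger transcription factor (chr10:13966075-14151374, plus strand), read 1.25, 1.06 and 1.80 CPM with BMS493 and 23.0, 19.1 and 19.2 CPM in co-culture (log2 fold change -3.92, SE 0.306, adjusted p = 1.63e-05). Tbxas1, thromboxane synthase, read 131, 162 and 143 CPM against 351, 406 and 370 CPM (2.63-fold, adjusted p = 0.000353). Mcu, the pore of the mitochondrial calcium uniporter, read 20.1, 22.1 and 21.7 CPM against 61.7, 81.2 and 48.2 CPM (3.04-fold, adjusted p = 0.00378). In each of these 3 genes every BMS493 library was below every co-culture library. All 151 calls kept their direction when any 1 library was left out, which groups that do not overlap make all but certain. Of the 151, 34 kept the threshold in all 6 omissions and 22 in every one of 13 alternatives, among them Selp, Rarb, Hivep2, Nrip1, P2rx1, Ltbp1, Cadm1 and Sulf2.

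Genes higher with BMS493 were fewer. Cadm1, a cell adhesion molecule of the immunoglobulin family (chr9:47530173-47857637, plus strand), read 107, 110 and 33.4 CPM with BMS493 and 4.88, 4.33 and 6.96 CPM in co-culture (adjusted p = 0.00366). Sulf2, which trims sulfate from heparan sulfate chains, read 40.1, 53.2 and 46.1 CPM against 9.09, 8.38 and 13.1 CPM (4.46-fold higher, adjusted p = 0.00553). Cells cultured alone stood at 46.8 CPM for Cadm1 and 45.3 CPM for Sulf2, nearer to the BMS493 libraries, and both calls held with any 1 library left out. Slamf7, a self-ligand receptor, was 4.69-fold higher (43.2 ± 5.77 against 9.02 ± 2.15 CPM, SD, n = 3). Havcr2, the inhibitory receptor TIM-3, was 4.26-fold higher (81.9 ± 20.3 against 18.9 ± 5.89 CPM, adjusted p = 0.0487), and leaving out any 1 of the 6 libraries ended its call, up to 0.184. The cholesterol exporter gene Abcg1 was 3.56-fold higher (adjusted p = 0.0161) and was the gene called of 9 LXR targets. The stress factor gene Atf3 was 2.34-fold higher (adjusted p = 0.0441) and was the gene called of 14 in the unfolded protein list.

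The remaining named genes above co-culture were Mgst3, a glutathione transferase of membranes (2.81-fold), Cbr3, a carbonyl reductase (2.47-fold), Eid1 (2.99-fold), Prr5l (4.15-fold), Tns3 (3.28-fold) and Trim47 (2.27-fold), at adjusted p of 0.0151 to 0.0496. The calls of Slamf7, Abcg1, Atf3, Mgst3, Cbr3, Eid1, Prr5l, Tns3 and Trim47 each ended in 3 or more of the 6 omissions, at up to 0.253, with BMS493 replicate 2 giving the highest value for Cbr3. Map3k9 had 81 counts with BMS493 and 1 in co-culture, a ratio of 87.8 (exact 95% binomial interval 15.3 to 3510, for counting error only).

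Genes over 4 times higher in PDPN+ cells than in macrophages alone need reading beside the stromal transcripts. Such genes were 15 of the 151 called, 10 lower and 5 higher, and 1775 of the genes tested. The stromal marker sum, after subtracting the mean of macrophages cultured alone, was 1.46% to 3.61% of that in the PDPN+ library of the same batch for co-culture, and 2.76% to 3.76% for BMS493. Multiplied by the PDPN+ level, a calculation added after the values were seen, those shares amount to 0.341 to 0.879 CPM of Rarb in co-culture, where 16.8 to 25.9 CPM were measured. For Gata6 they amount to 0.320 to 3.91 CPM of 35.9 to 80.9 CPM, and for Cyp26a1 to at most 0.0701 CPM of 6.14 to 19.3 CPM. In the BMS493 libraries they amount to 0.553 to 3.14 CPM of Gata6, of 3.16 to 7.08 CPM measured.

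Further lower genes of that class included the chemokine scavenger Ackr3 (74.6-fold), the ephrin receptor Epha2 (7.39-fold) and Ltbp3 (8.89-fold), at adjusted p of 0.018 to 0.0306. The calls of Ackr3 and Ltbp3 ended in 5 of 6 omissions (up to 0.188) and that of Epha2 in 3 (up to 0.114). Among the higher genes, Cd276, an immune checkpoint ligand also called B7-H3, read 28.8, 25.5 and 29.5 CPM with BMS493 and 1.26, 3.18 and 3.05 CPM in co-culture. It was 11.01-fold higher (adjusted p = 0.0196), and the stromal share amounts to 1.05 to 1.72 CPM of it in BMS493 libraries. Sod3, extracellular superoxide dismutase, read 7.35, 10.1 and 39.1 CPM against 2.41, 1.39 and 1.44 CPM, and there the stromal share amounts to 2.27 to 35.7 CPM. The part of stromal transcripts in the result for Sod3 was not tested further. Rnase4 (4.14-fold) and Selenom (3.40-fold) were higher at adjusted p of 0.0452 and 0.0162. The calls of Cd276, Rnase4 and Selenom ended in 5 of 6 omissions (up to 0.241) and that of Sod3 in 3, those of BMS493 replicate 3 (0.0758) and co-culture replicates 2 and 3 (0.11 and 0.0727).

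Other lists showed few or no calls. Ccl24 was the 1 gene called of 12 in the alternative activation list (median -1.35). Arg1, the arginase of that list, read 557, 249 and 3592 CPM with BMS493 and 10587, 13364 and 16701 CPM in co-culture, without overlap but far apart between BMS493 replicates (adjusted p = 0.476, and 0.0935 with the block). Vegfa, the endothelial growth factor, was 7.90-fold lower (28.9 ± 19.6 against 225 ± 133 CPM, SD, n = 3, adjusted p = 0.0161, and 0.103 and 0.118 without BMS493 replicate 1 or 2), and hexokinase Hk2 2.30-fold lower (adjusted p = 0.0271, and up to 0.16 in the 4 omissions that ended its call). These were the 2 genes called of 17 in the hypoxia and glycolysis list, whose median was -0.19. Ier2 of 16 tested immediate early genes was 2.64-fold lower, and Sc5d, a late enzyme of cholesterol synthesis, was the gene called of 18 in its list (2.29-fold lower). The call of Ier2 ended in 5 of 6 omissions (up to 0.155) and that of Sc5d in 3 (up to 0.0906).

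In 0 of 16 pan-macrophage, 16 fibroblast, 11 smooth muscle, 18 tested inflammatory cytokine, 15 interferon response, 7 MHC class II, 23 cell cycle and 10 heat shock genes did a member pass in either direction. Over all genes tested 0.726% were lower and 0.124% higher, a share at which lists this short would mostly hold no call. The absence of calls therefore does not show that these genes were unchanged. Some of these lists sat off centre: the cell cycle median was 0.63 with 1 of 23 members below 0, the interferon median 0.57 and the glutathione defence median 0.89. Each of these was short of the threshold gene by gene. The fibroblast median was 0.43, in the direction of the stromal sum. Over all genes, 1565 had an unadjusted edgeR p under 0.05.

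**Figure D4:**
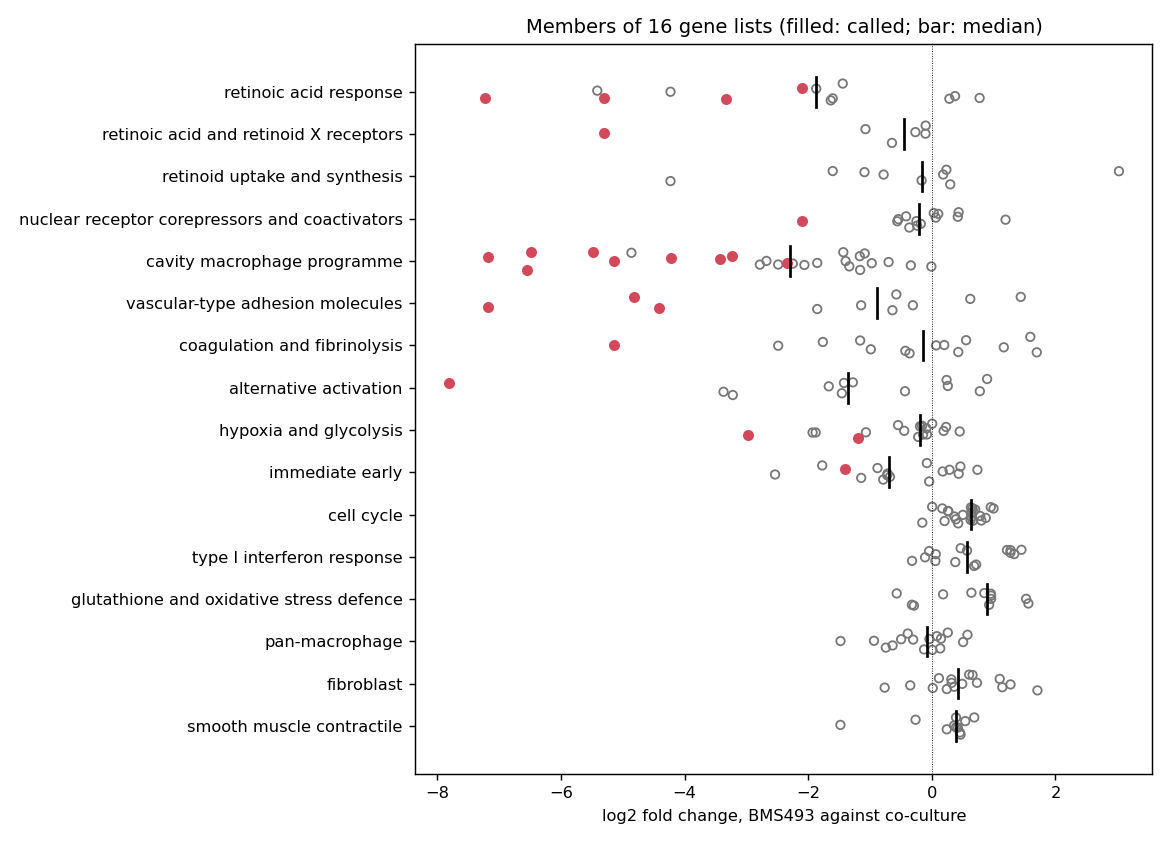
Log2 fold change of BMS493 against co-culture for the tested members of 16 gene lists; filled points passed the test and bars are list medians. All 26 members of the cavity macrophage list, chosen with earlier results of these data known, are below 0, with a median of -2.30, while the pan-macrophage median is near 0.

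Most genes that passed the test with ATRA in macrophages cultured without stroma also passed here in the opposite direction. ATRA and alone libraries do not enter the BMS493 against co-culture contrast, though all share batches and one estimate of the spread. In that comparison 50 genes were higher with ATRA (0.281%) and 8 lower (0.045%). Of the 50, 37 were lower with BMS493 than in co-culture (74%, against 0.726% of all genes tested), 0 were higher and 13 did not pass. Of these 50, 49 were below 0, with a median of -2.15, and the other was Col4a1. Of the 8, 6 were higher with BMS493 (75%, against 0.124% of all genes tested), 2 did not pass, all 8 were above 0, and the median was 1.70. Read the other way, 28.7% of the 129 lower genes were higher with ATRA and 27.3% of the 22 higher genes were lower with ATRA, while 128 of the 129 and 21 of the 22 had the opposite sign there. The median log2 fold change with ATRA was 1.81 over the 129 and -1.31 over the 22, against -0.0064 over all genes tested.

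The ATRA list with the largest changes comprised Cyp26a1, Camkk1, P2rx1, Csn3, Selp, Cst7, F5, Col4a1, Aldh1a2 and Rarb. On the plus strand of chromosome 1 Selp ends at 164150026 and F5 starts at 164151838. On that of chromosome 11 P2rx1 ends at 73015200 and Camkk1 starts at 73019008. Whether the genes of each pair changed separately was not tested. Csn3, which encodes kappa-casein, read 0.156, 0.0706 and 0.0800 CPM with BMS493 and 4.37, 13.5 and 10.4 CPM in co-culture (88.4-fold lower, adjusted p = 0.00366). Cst7, the protease inhibitor cystatin F, read 0.438, 0.106 and 1.64 CPM against 8.61, 7.27 and 4.61 CPM without passing (adjusted p = 0.108). Aldh1a2 and Col4a1, a basement membrane collagen, were the exceptions among these 10: Col4a1 read 16.6, 16.8 and 32.2 CPM against 15.1, 11.4 and 14.95 CPM (log2 fold change 0.64, adjusted p = 0.919). Both belong to the class that is higher in PDPN+ cells, and macrophages cultured alone held 1.38 CPM of Aldh1a2 and 0.799 CPM of Col4a1. Across the 17774 genes, which are not independent replicates, the log2 fold changes of the comparisons correlated at r = -0.305 and rho = -0.305.

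**Figure D5:**
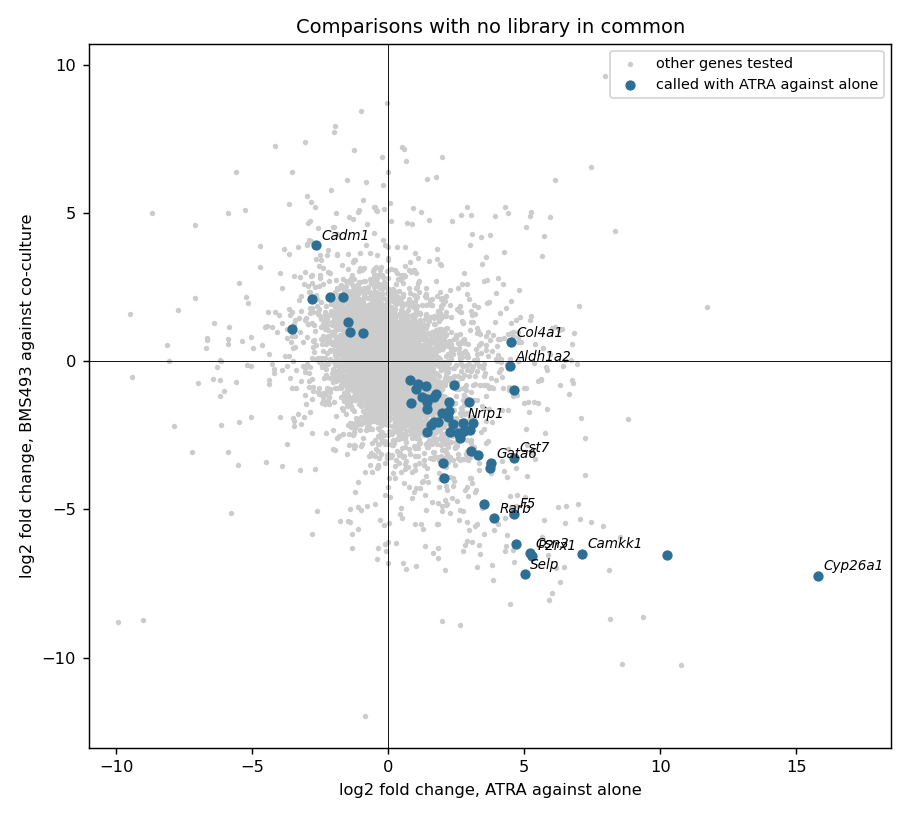
Log2 fold change of ATRA against alone (x axis) and of BMS493 against co-culture (y axis) for every gene tested; blue points were called with ATRA. Of the 50 genes higher with ATRA, 49 lie below the horizontal line, and all 8 genes lower with ATRA lie above it.

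Few genes were called in the PDPN+ cells with the same treatment, in a fit of the 12 PDPN+ libraries. Co-culture replicates 2 and 3 there came from 3730 and 2148 cells, against 25000 for replicate 1. A low number of calls does not show that few genes changed. Of 19134 genes tested there, 3 were lower with BMS493 (0.0157%) and 0 higher (0%). Dhrs3 read 2.78, 8.40 and 7.07 CPM with BMS493 and 233, 200 and 75.8 CPM in co-culture (28.1-fold lower, adjusted p = 0.03), and the others were Resf1 (4.52-fold) and Gm42503 (25.8-fold). Rarb read 0.106, 0 and 0.641 CPM against 24.3, 28.1 and 22.1 CPM in PDPN+ cells, without overlap but not past the threshold (log2 fold change -6.58, adjusted p = 0.12). Gata6 did not separate there, at a log2 fold change of 0.01, with 14.7 to 114 CPM with BMS493 and 20.8 to 108 CPM in co-culture. A test of the difference between cell types, over 20987 genes, called Hivep2 and Resf1 (0.00476% in each direction), while 846 genes had an unadjusted p under 0.05. For Gata6 that difference was -3.42 (SE 0.909, adjusted p = 0.453), so a larger change in macrophages was not shown by this test.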

How the data were processed

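Whole-number counts of uniquely aligning reads per gene model were deposited, per the file headers, beside the authors' RPKM, adjusted by a size factor, which served only to compare scaling (largest absolute log2 ratio to the scaling used here 0.0423). The submitters' processing notes name GSNAP and GRCm38. The sources used here give neither aligner version, annotation nor strand setting, so reads of overlapping, antisense and near-identical genes cannot be told apart. Of 50764 gene models, 192 have no symbol and hold 0.0358% of counts.

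Counts from all 18 macrophage libraries were fitted by group in edgeR 4.0.16 (R 4.3.3, limma 3.58.1; TMM scaling, filterByExpr, quasi-likelihood test, Benjamini-Hochberg adjustment over all genes tested, threshold 0.05). CPM were taken over all 30 libraries on TMM-scaled totals. Alternatives were DESeq2 1.42.0, other scaling and filters, fewer libraries, each replicate left out and a block for replicate number. That number matches the labels' batch tag, and deviations of same-numbered libraries correlated at 0.474, 0.307 and 0.592 over 17774 genes. Pairs with different numbers correlated at -0.516 to 0.273, the highest for replicate 2 and so close to its same-number value, and up to 0.235 for replicate 1. The scripts were tested on simulated data.

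Named genes were called genes with the largest change, a mean of 10 CPM or more where they were higher, libraries that did not overlap, and an ordinary symbol, up to 12 a direction, plus up to 6 of the partner-cell class, called list members, up to 10 ATRA genes, and a set of retinoid, cavity and sorting genes always shown. The partner-cell class is defined by a ratio above 4 between PDPN+ cells alone and macrophages alone (means plus 0.5 CPM). Some members are not reported here. Members and lists were chosen with earlier results of these data known. Gene coordinates are from GENCODE on GRCm38 and promoters from RefSeq, counted from 1. Without molecular identifiers, reads are not independent molecules, so floors and intervals describe counting error alone.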

Additional observations from a re-analysis of the deposited data

Results flagged for a closer look

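For 2 genes the change with BMS493 against co-culture differed between macrophages and PDPN+ cells in the test of that difference over all 30 libraries. Hivep2 fell in macrophages, while its log2 fold change in PDPN+ cells was -0.68 and did not pass. The macrophage minus PDPN+ log2 difference was -3.23 (SE 0.507, adjusted p = 0.0162, edgeR). PDPN+ cells read 10.7, 8.87 and 11.9 CPM of Hivep2 with BMS493 and 10.9, 15.1 and 23.8 CPM in co-culture. Resf1 differed the other way, by 2.29 (SE 0.292, adjusted p = 0.0011): macrophages read 68.5, 65.2 and 68.1 CPM with BMS493 against 52.3, 52.1 and 81.0 CPM, and PDPN+ cells 22.8, 22.9 and 23.0 CPM against 123, 117 and 69.2 CPM. In a fit of the 12 libraries of the 4 groups alone, the adjusted p was 0.0563 for Hivep2 and 0.0693 for Resf1.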

How the results depend on the processing

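Counts of genes lower and higher (129 and 22) and of distinct list members called (23) moved with the fit: 59 lower, 16 higher and 12 members with the 6 libraries fitted alone, 257, 63 and 37 with the replicate block, 326, 179 and 59 with the replicate block on the 6 libraries alone, 325, 118 and 39 with DESeq2, and 253, 61 and 45 without batch mbb340. DESeq2's size factors in edgeR, no filter, and leaving out partner-cell genes gave 118 to 128 lower and 17 to 23 higher. With 1 library left out, 36 to 121 were lower and 2 to 24 higher. The count of genes higher with ATRA and lower with BMS493 rose from 37 to 87 with the replicate block, and that of the opposite kind fell from 6 to 3 without a filter and 2 without partner-cell genes. Genes differing between cell types numbered 7 with the replicate block and 4 in the 12-library fit, against 2.

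The log2 fold change turned positive for Tgfb2 (0.43 with the block, 0.0100 with DESeq2, 0.0099 with its size factors, 0.0085 without filter, 0.0040 without partner-cell genes, -0.58 to 0.48 with a library left out), Rara (0.0132 with the block on 6 libraries, 0.25 without batch mbb340, -0.41 to 0.46 with a library left out) and Rxra (-0.32 to 0.13 with a library left out). Cyp26b1 was at 0 without co-culture replicate 1 (-2.37 to 0 over the omissions), and Pdpn, at 1.26 in all libraries, at -0.37 without BMS493 replicate 3 (-0.37 to 4.15). The stromal sum difference of 342 CPM ranged from -9.10 to 822 CPM with 1 library left out. The cause was not tested. Precision is limited by 3 libraries a group and, for genes near 0 CPM such as Cyp26a1, by counting.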

Other observations

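Lipid mediator and lipid synthesis genes were also among those lower with BMS493, on lists added after the values were seen, so no weight rests on their counts. Of 24 tested eicosanoid enzymes and receptors 6 were lower and 0 higher (median -0.26). Beside Tbxas1 and Alox15 they were Ltc4s, leukotriene C4 synthase (3.75, 3.81 and 3.24 against 34.1, 43.6 and 12.5 CPM, adjusted p = 0.00366, and 0.0581 in the fit of the 6 libraries alone), Ptgis, prostacyclin synthase (12.3-fold, adjusted p = 0.00632), Ptgs1, cyclooxygenase 1 (6.74-fold, adjusted p = 0.042) and the prostaglandin receptor gene Ptger4 (2.97-fold, adjusted p = 0.0443). Leaving out BMS493 replicate 2 raised the adjusted p to 0.0593 for Ptgis, 0.231 for Ptgs1 and 0.246 for Ptger4. Ptgs2, the inducible cyclooxygenase, read 1.78, 5.30 and 172 against 1.54, 2.18 and 127 CPM, high in batch mbb340 of both groups and not in the others.

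Of 20 fatty acid and triglyceride synthesis genes 5 were lower and 0 higher (median -0.35). Mlxipl, the carbohydrate-sensing factor ChREBP, read 2.78, 2.72 and 0.400 against 53.5, 63.2 and 33.4 CPM (25.7-fold, adjusted p = 0.0044, and 0.0578 in the fit of the 6 libraries alone), and Acly, which makes cytosolic acetyl-CoA, 265, 255 and 375 against 1660, 2161 and 1003 CPM (5.47-fold, adjusted p = 0.0129). Acaca, Gpat3 and Idh1 were 5.02-fold, 4.96-fold and 2.83-fold lower. Without BMS493 replicate 2 the adjusted p was 0.101 for Acly, 0.16 for Acaca and 0.188 for Gpat3. Fasn, fatty acid synthase, read 69.6, 64.7 and 42.9 against 56.6, 79.1 and 49.3 CPM and overlapped (adjusted p = 0.993).

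Adgre4, an adhesion receptor of macrophages, was higher in culture alone than in either group. It read 0.657, 2.22 and 1.92 CPM with BMS493, 12.3, 14.3 and 15.4 CPM in co-culture (8.98-fold, adjusted p = 0.00366, and 0.0523 in the fit of the 6 libraries alone) and a mean of 64.2 CPM alone.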
